A study of Oncorhynchus mykiss with 32 samples.

Results

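Transcripts of a transferrin receptor and of a metal-sensing transcription factor were followed in the livers of rainbow trout from a fat and a lean line fed diets rich or poor in lipid. The 2 transcripts described are 2 of the 9023 trout clones on the array, the transferrin receptor protein 1 clone (TFR1, clone tcba0006.l.19) and the metal-regulatory transcription factor 1 clone (MTF1, clone tcay0010.c.03). Both were chosen by their difference between the lines in these same livers, since the study names clones by their differences, so that values of the F line set against the L line are given here as a description with no test. The diet, the interaction of line and diet and the tanks played no part in that choice and were tested. The spread among livers of 1 group did enter it, since the study's line tests set the difference against that spread. How 2 clones varied together among livers of 1 group did not define the choice, and was tested.

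The fish came from a fat muscle line (F) or a lean muscle line (L), bred by selection in opposite directions on muscle fat, and were fed from first feeding for 6 months a high energy diet with 23% lipid (HE) or a low energy diet with 10% lipid (LE). RNA of single livers was hybridized to nylon membranes, 1 liver per membrane, with 8 livers in each of the F-HE, F-LE, L-HE and L-LE groups, and the livers of a group came from 3 tanks. The condition label of each liver ends in a number from 1 to 3. That number was read here as the tank, since the study kept its groups in triplicate. Both diets were built on 1 fishmeal mixture, with fish oil added to the HE diet, so that lipid content and energy changed together. The HE diet also held less protein and starch by dilution, and another balance of polyunsaturated fatty acids. Each line is a single selected stock, and line differences cannot be told apart from other differences between those stocks.

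Transferrin receptor 1 is the membrane protein that takes iron-loaded transferrin from the blood into cells. Its mRNA is known in mammals to be stabilized by iron regulatory proteins when cell iron is low, and red cell precursors, which need iron for haem, carry much of the receptor. MTF1 is the zinc finger factor that binds metal response elements and switches on metallothioneins and other genes of metal and oxidant defence. In trout, as in other fish, circulating red cells have a nucleus and hold RNA, so that liver RNA includes some from blood.

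Values are the log2 signal of a clone over the median signal of its array, on which 0 is the level of the median clone. The TFR1 clone matched a hamster protein and the MTF1 clone a mouse protein in the study's annotation. The RefSeq gene table of the trout assembly USDA_OmykA_1.1 lists tfr1a, tfr1b and tfr2. The TFR1 clone could not be placed on one of them, so that the signals of these genes cannot be told apart. The MTF1 clone was annotated to 2 contigs. Both clones were measured on all 32 arrays. The mean signal of the TFR1 clone was above that of 62.4% of the tested clones and that of the MTF1 clone above 12.1%. The water spots had been excluded on every array, so that no background level could be set beside the dim MTF1 signal.

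Between 7613 and 8134 clones were measured per array. The membrane 59 array, of the F-HE group, stood apart, with a median Spearman correlation with the other arrays of 0.161, while 5 further arrays were between 0.828 and 0.896 (membranes 62, 65, 68, 53 and 56) and the remaining 26 between 0.908 and 0.967. The control spots had a median log2 signal of 0.71 on membrane 59 and of 5.71 to 7.62 on the other arrays. All 10 clones of hepatocyte proteins had a mean above the array median. Without membrane 59 their summed signal was 302 to 424 times the array median in F-HE, 262 to 467 in F-LE, 262 to 454 in L-HE and 271 to 478 in L-LE livers, and it was 48.6 on membrane 59. Among these 10 clones LECT2 was itself called lower on HE over both lines (-1.05, limma, adjusted p = 0.146, and -0.92 with adjusted p = 0.0924 without membrane 59). The 2 muscle protein clones, parvalbumin and titin, were also above the array median, and their summed signal was 15.2 to 32.6 times the array median in F-HE (from 22.5 without membrane 59), 29.5 to 38.8 in F-LE, 24.8 to 37.1 in L-HE and 33.3 to 42.2 in L-LE livers. Parvalbumin was also called lower on HE over both lines (-0.53, limma, adjusted p = 0.0709, and -0.54 with adjusted p = 0.0301 without membrane 59). The study had picked all of these hepatocyte and muscle clones on these samples for a line or a diet difference. The calls of LECT2 and parvalbumin are therefore not independent evidence, and the summed signals are no neutral measure of cell content. The part of these hepatocyte and muscle transcripts in the differences of TFR1 and MTF1 was not tested. TFR1 was the lowest or second lowest liver of its group on 5 of the 6 arrays of low correlation. MTF1 was so on 0 of them and the highest or second highest on 2. How often other clones stood at the ends of their groups on these arrays was not counted. The counts are therefore no result about TFR1 itself.

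TFR1 was lower in F than in L livers on both diets, with wide overlap among single fish. In F-HE livers the values were -0.87, -0.50, -0.12, -0.01, -0.01, 0.61, 0.79 and 0.84, where the lowest is membrane 59 and the next membrane 65. In L-HE livers they were 0.39, 0.43, 0.46, 0.56, 0.75, 0.80, 1.61 and 1.73. Of the 8 F-HE livers, 5 lay below every L-HE liver, and the other 3 lay within the L-HE range. The L-HE group held 2 livers far above its other 6.

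On the LE diet the order of the lines was the same. The F-LE livers had TFR1 values of -1.70, -0.25, -0.08, -0.02, 0.58, 0.58, 0.72 and 1.10, the lowest on membrane 62. The L-LE livers had 0.44, 0.60, 0.76, 0.79, 0.96, 1.12, 1.16 and 1.84. Here 4 F-LE livers lay below every L-LE liver, and 3 L-LE livers lay above every F-LE liver.

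As group means, TFR1 stood at 0.09 ± 0.61 in F-HE, 0.12 ± 0.87 in F-LE, 0.84 ± 0.53 in L-HE and 0.96 ± 0.43 in L-LE livers (SD, n = 8 each), which are signals of 1.07, 1.08, 1.79 and 1.94 times the array median. The F minus L difference, by which the clone was chosen, was -0.75 on the HE diet and -0.84 on the LE diet. Without membrane 59 it was -0.61 on the HE diet, and the mean of the remaining 7 F-HE livers was 0.23 ± 0.51. Without all 6 arrays of low correlation it was -0.49 on HE and -0.72 on LE, a smaller gap in the same direction. The medians, which single arrays move less, were -0.01 in F-HE against 0.66 in L-HE livers and 0.28 in F-LE against 0.87 in L-LE livers. In bulk liver a lower signal from fewer cells of a type cannot be told apart from less RNA per cell.

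**Figure D1:**
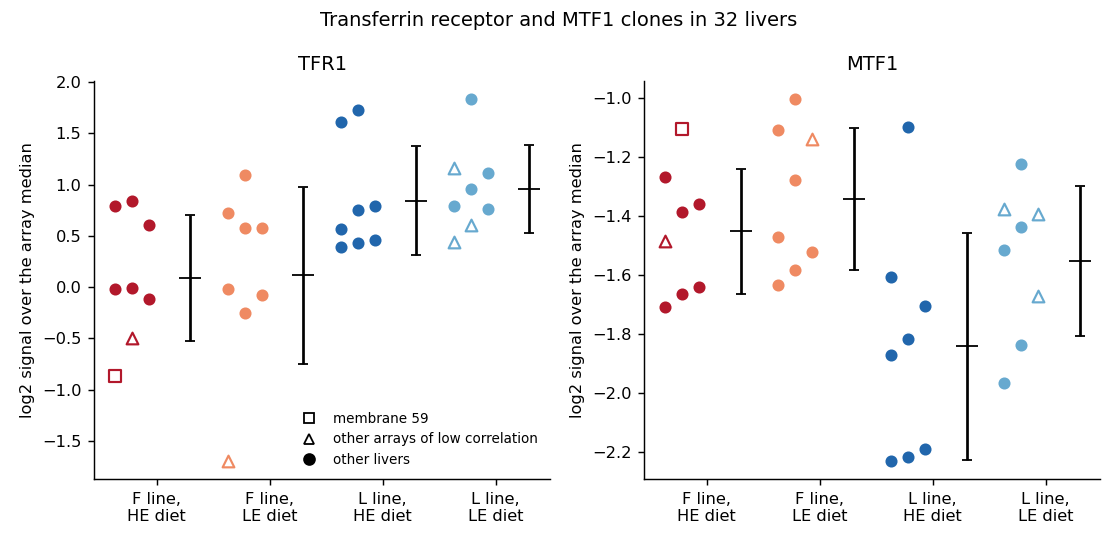
Log2 signal over the array median of TFR1 (left) and MTF1 (right) in each of 32 livers by line and diet, 8 livers per group, with the group mean ± SD beside the points. The square is membrane 59 and the triangles are the 5 other arrays of low correlation. The lowest TFR1 values, -1.70 and -0.87, are on such arrays, and the 3 lowest MTF1 values are all L-HE livers.

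MTF1 ran the other way, slightly higher in F livers. The gap between the lines was wider on the HE diet with the deposited values, while after quantile normalization it was 0.29 on HE and 0.36 on LE. F-HE livers had MTF1 values of -1.71, -1.66, -1.64, -1.49, -1.39, -1.36, -1.27 and -1.11, the last on membrane 59. L-HE livers had -2.23, -2.22, -2.19, -1.87, -1.82, -1.71, -1.61 and -1.10. All 8 F-HE livers were above the L-HE median, and 5 L-HE livers lay below every F-HE liver, while 1 L-HE liver, membrane 23, was above them all.

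On the LE diet the lines overlapped more. F-LE livers had MTF1 values of -1.63, -1.58, -1.52, -1.47, -1.28, -1.14, -1.11 and -1.01. L-LE livers had -1.97, -1.84, -1.67, -1.51, -1.44, -1.40, -1.38 and -1.22. In this comparison 3 F-LE livers were above every L-LE liver and 3 L-LE livers below every F-LE liver.

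Mean MTF1 was -1.45 ± 0.21 in F-HE, -1.34 ± 0.24 in F-LE, -1.84 ± 0.39 in L-HE and -1.55 ± 0.25 in L-LE livers (SD, n = 8 each). The F minus L difference, by which this clone too was chosen, was 0.39 on the HE diet, a fold of 1.31, and 0.21 on the LE diet, a fold of 1.16. Leaving out membrane 59 made it 0.34 on the HE diet. Livers of 1 group differed far more in TFR1 than in MTF1. The residual SD within groups was 0.632 for TFR1, more than that of 74.5% of the 7763 tested clones, and 0.280 for MTF1, more than that of 11.1% of them, where the median clone had 0.463. The study's choice set the line difference against this spread, so that these ranks are not independent of the choice. Without the 6 arrays of low correlation the TFR1 SD was 0.50 in F-LE and 0.44 in F-HE livers, against 0.87 and 0.61 with all arrays. In L-LE livers it was 0.44 against 0.43.

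The diet was asked next, as it was given to whole tanks and did not enter the choice of either clone. TFR1 stood at nearly the same mean on both diets. Over both lines the HE minus LE difference was -0.07 (standard error 0.216, 95% interval -0.51 to 0.37, limma, adjusted p = 1), in F livers -0.02 (interval -0.65 to 0.60, adjusted p = 0.982) and in L livers -0.12 (interval -0.74 to 0.50, adjusted p = 0.921). Without membrane 59 the difference was 0.11 in the F line, above 0, and the L line value was the same. These intervals still allow changes of either sign. The interaction, by which the diet difference of the F line exceeded that of the L line, was 0.09 (interval -0.79 to 0.97, adjusted p = 0.908), and 0.23 without membrane 59 (adjusted p = 0.891).

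Neither clone was called for diet, and few clones were. At an adjusted p under 0.15, 0 of the 2 clones passed for diet over both lines, where 0.245% of the 7763 tested clones did (19 clones, 283 at an unadjusted p under 0.05). In the F line 0.0515% of clones passed (4 clones) and in the L line 0% (0 clones by limma, with 432 at an unadjusted p under 0.05). For the interaction it was 0% (0 clones by limma, with 523 at an unadjusted p under 0.05). In exact permutation tests over single livers, TFR1 had p = 0.754 over both lines (two-sided), p = 0.953 in the F line and p = 0.636 in the L line. Over the means of the 3 tanks per group the exact p over both lines was 0.84 after adjustment over 6 tests, where the smallest possible unadjusted p is 0.005.

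MTF1 was lower on the HE diet in both lines, without passing the test over all clones. The difference was -0.20 over both lines (standard error 0.106, 95% interval -0.42 to 0.02, limma, unadjusted p = 0.0696, adjusted p = 1), which is a fold of 0.871. In the F line it was -0.11 (interval -0.42 to 0.20, adjusted p = 0.798) and in the L line -0.29 (interval -0.59 to 0.02, adjusted p = 0.769). In the L line 7 of 8 HE livers were below the LE median and 3 were below every LE liver, while the remaining HE liver, membrane 23, was above every LE liver. In the F line 5 of 8 HE livers were below the LE median.

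The two-sided exact permutation test of MTF1 over livers gave p = 0.0534 for both lines together, or 0.295 adjusted over the 6 exact tests of both clones. Without membrane 59, a setting chosen after seeing the data, the same exact test gave p = 0.029 and 0.174 adjusted, with a difference of -0.22. Over tank means the unadjusted exact p was 0.16 (0.8 adjusted over 6 tests) with all arrays and 0.105 (0.63 adjusted) without membrane 59. Within a line 3 tanks against 3 cannot go below 0.1, and the unadjusted exact p over tanks was 0.3 in F and 0.4 in L. The MTF1 interaction was 0.18 (interval -0.25 to 0.61, adjusted p = 0.647), and 0.13 without membrane 59. It had the other sign, at -0.07, after quantile normalization, and the L line difference was then -0.08.

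**Figure D2:**
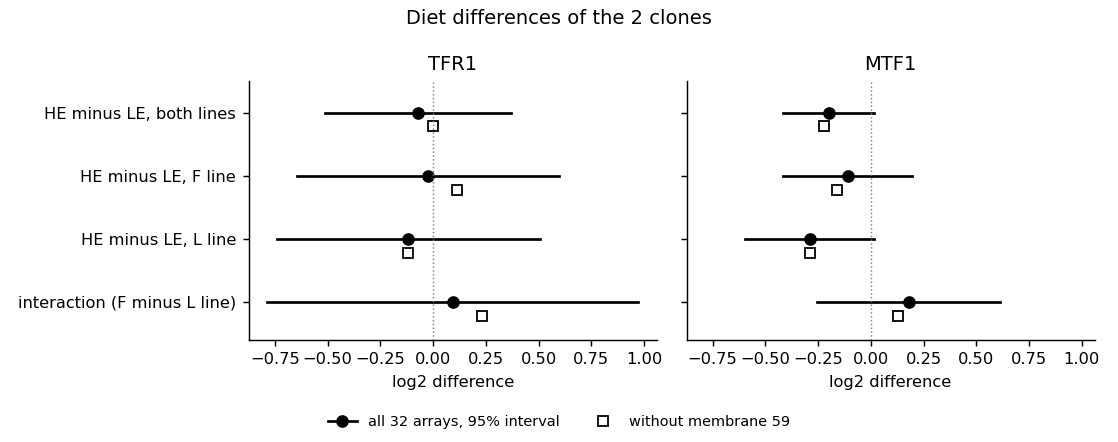
HE minus LE log2 differences of TFR1 (left) and MTF1 (right) over both lines and in the F and L lines, and the interaction, as points with 95% intervals from all 32 arrays. Squares are the values without membrane 59. Every interval includes 0, and those of MTF1 end at 0.02 for both lines together and for the L line.

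Tanks were then set beside each other, as fish of a tank share food and water. TFR1 in F-LE livers averaged 0.10, -0.40 and 0.91 in tanks 1, 2 and 3, and the low mean of tank 2 holds membrane 62. In L-LE livers the tank means were 0.72, 0.80 and 1.30. In F-HE livers they were 0.27, 0.15 and -0.13, and in L-HE livers 0.63, 1.02 and 0.81. The F-LE tank 3 mean was the highest of the F tanks and lay above 4 of the 6 L tank means, while L-HE tank 2 and L-LE tank 3 lay above it.

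The MTF1 tank means spread most in L-HE livers, at -1.40 in tank 1, -2.02 in tank 2 and -1.96 in tank 3. Tanks of F-HE livers had -1.43, -1.42 and -1.49, those of F-LE livers -1.46, -1.22 and -1.35, and those of L-LE livers -1.56, -1.52 and -1.57. The L-LE tanks lay close together, and L-HE tanks 2 and 3 lay below every other tank. Between tanks lay 27.5% of the within-group variation of TFR1 (permutation p = 0.498) and 28.0% of that of MTF1 (permutation p = 0.482). The share that no tank effect would give on average, from the degrees of freedom, is 28.6%.

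**Figure D3:**
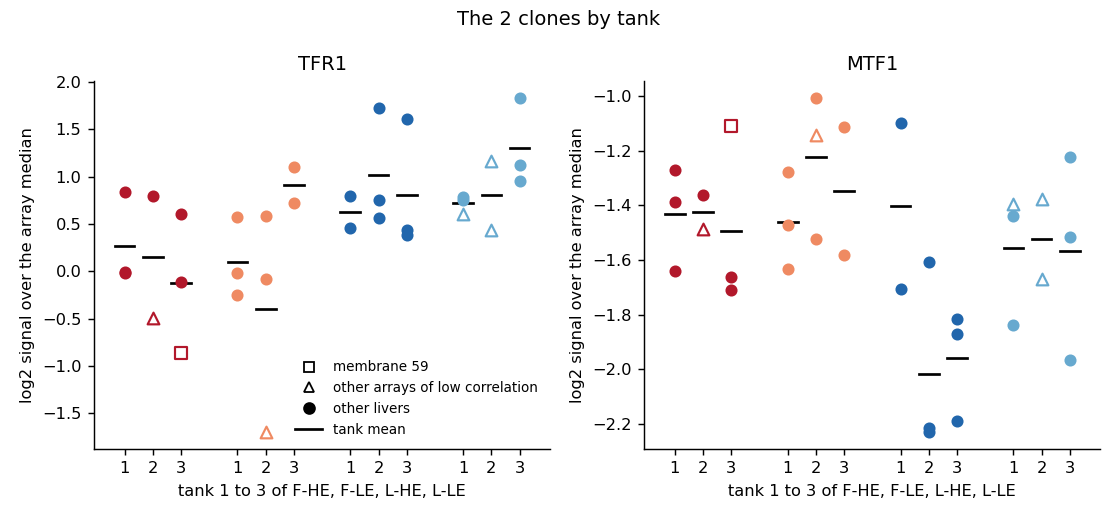
Log2 signal over the array median of TFR1 (left) and MTF1 (right) in single livers by tank, for tanks 1 to 3 of F-HE, F-LE, L-HE and L-LE, with a bar at each tank mean. The square is membrane 59 and triangles are the other arrays of low correlation. MTF1 tank means of L-HE tanks 2 and 3, at -2.02 and -1.96, lie below all others.

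Iron handling and metal response involve more genes than these. The named clones were set in 3 lists of 11 clones. The study itself picked all of them on these samples for a line or a diet difference. Neither their directions nor their calls and p-values are therefore independent evidence. The iron and iron-sulfur list held IREB1 (iron regulatory protein 1, which binds TFR1 and ferritin mRNA in mammals), ISAM2 and NIFUN (scaffold and assembly proteins for iron-sulfur clusters) and UCRI (the Rieske iron-sulfur subunit of respiratory complex III). For diet, 0 of its 4 clones were called, with 1 difference above 0, 3 below and a median of -0.12. All tested clones had a median of -0.01, with 47.1% above 0 and 0.245% called. Without membrane 59, 2 differences were above 0 and 2 below, with a median of -0.03.

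IREB1 had 27 measured livers. It lacked a value on membranes 62, 65, 53 and 68, which are arrays of low correlation, and on membrane 5. It ranged from 1.94 to 4.30 with a median of 4.02 in 7 F-HE livers, against 3.89 to 4.47 with a median of 4.11 in 6 F-LE livers. The low end is membrane 59, and without it the F-HE livers began at 3.90 and overlapped the F-LE livers almost fully. Over both lines IREB1 differed by -0.11 with all arrays (adjusted p = 1) and by 0.04 without membrane 59 (adjusted p = 0.901). UCRI ranged from 0.02 to 2.29 (median 1.69) in F-HE livers, against 1.47 to 2.76 (median 2.16) in F-LE livers. Its HE minus LE difference was -0.65 in the F line (unadjusted p = 0.0339, adjusted p = 0.751) and -0.20 in the L line (adjusted p = 0.859). The low end was again membrane 59, and without it the F line difference of UCRI was -0.43. The differences of ISAM2 and NIFUN over both lines were 0.05 and -0.13 (adjusted p = 1 each).

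The erythroid list held 3 clones of red cell membrane proteins, namely B3AT (the band 3 anion exchanger), RHAG (the Rh-associated glycoprotein) and ERMAP (an erythroid membrane-associated protein), and no haemoglobin clone was among the named ones. Of these, 2 of 3 had a mean above the array median. Their summed signal was 3.97 to 13.6 times the array median in F-HE, 10.4 to 14.0 in F-LE, 9.26 to 15.7 in L-HE and 5.59 to 14.3 in L-LE livers, and 6.89 to 13.6 in F-HE livers without membrane 59. The ranges overlapped between the lines on both diets, and the part of red cells in the TFR1 difference was not tested. These clones too had been picked on these samples and did not move together, so their sum is no neutral measure of red cell content.

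ERMAP was the list clone with the largest diet difference. It ranged from -0.0033 to 1.94 (median 1.52) in F-HE livers, against 1.79 to 2.82 (median 2.53) in F-LE livers. The lowest value was again membrane 59, and the next F-HE liver was at 1.08. In the L line it ranged from 1.16 to 1.72 on HE, against 0.45 to 2.87 on LE. The difference over both lines was -0.76 (standard error 0.194, limma, adjusted p = 0.165), which missed the threshold. Without membrane 59 it was -0.66 (adjusted p = 0.116) and ERMAP passed, so that 1 of 3 erythroid clones was called against 0 of 3 with all arrays. In that setting, chosen after seeing the data, 0.528% of all clones were called for diet (41 of 7759). ERMAP had been picked on these samples, so that its call is not independent evidence.

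The other 2 erythroid clones did not follow ERMAP. B3AT averaged 3.21 ± 0.29 in L-HE against 2.50 ± 0.69 in L-LE livers (SD, n = 8 each), a difference of 0.71 (unadjusted p = 0.0128, adjusted p = 0.769 in limma), and its F line difference was 0.003. On membrane 59 B3AT stood at 1.07, with the next F-HE liver at 2.12, and without that array the F line difference was 0.24. RHAG differed by 0.03 over both lines (adjusted p = 1). Its highest livers were on arrays of low correlation in 3 of the groups, as membrane 59 (-0.20) in F-HE, membrane 62 (-1.12) in F-LE and membrane 68 (-0.63) in L-LE.

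The thiol and oxidant list held GSHB (glutathione synthetase), CGL (cystathionine gamma-lyase, which makes cysteine), MSRA (peptide methionine sulfoxide reductase) and 8ODP (a hydrolase of oxidized purine nucleotides). All 4 differences were below 0 over both lines, with a median of -0.11 and 0 of 4 called. All tested clones had a median of -0.01, with 47.1% above 0 and 0.245% called. Without membrane 59 the median of the 4 was -0.25, with 0 of 4 called, where 0.528% of all tested clones were called. The difference of CGL was -0.35 (unadjusted p = 0.0179, adjusted p = 1). It was -0.50 in F and -0.21 in L livers. The lowest F-HE liver for CGL was membrane 59 at -0.94, with the next at -0.08. Without that array the difference was -0.27 over both lines and -0.34 in F livers.

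MSRA turned with 1 array, as its F line difference was 0.24 with membrane 59 and -0.23 without. On that array it stood at 4.46, and the other 7 F-HE livers ranged from 0.37 to 1.15, against 0.68 to 1.37 in F-LE livers. In the L line the groups did not overlap, with 0.28 to 0.67 in L-HE livers and 0.75 to 1.63 in L-LE livers. Complete separation in this direction was seen in 3 of the 7763 tested clones, 0.0386%. The study lists the transcript of this enzyme as lower on HE in these same samples, so that the separation is not independent evidence. The limma fit, which shares its spread across groups, gave -0.47 in the L line (standard error 0.341, adjusted p = 0.769). Without membrane 59 the L line value was the same, with a standard error of 0.136 (adjusted p = 0.278). Over both lines the difference was then -0.35 (adjusted p = 0.177).

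**Figure D4:**
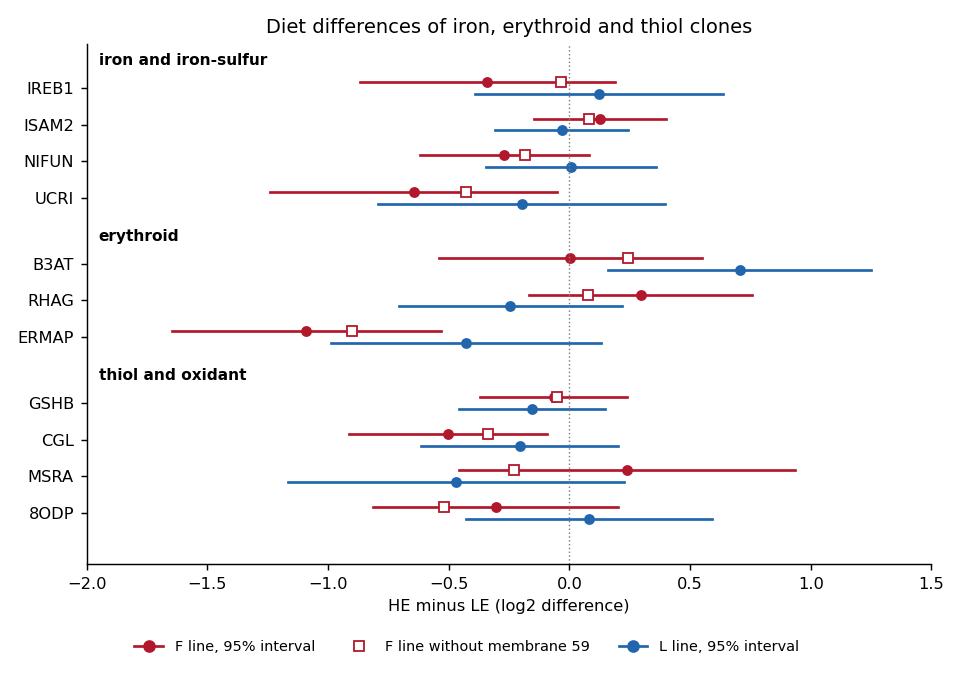
HE minus LE log2 differences of the 11 clones of the iron and iron-sulfur, erythroid, and thiol and oxidant lists in F livers (red) and L livers (blue), as points with 95% intervals. Squares are the F line values without membrane 59. The lowest point is ERMAP in the F line at -1.09, and the square of MSRA lies on the other side of 0 from its point.

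Livers of 1 group share line and diet, and the remaining variation was used to ask which signals moved with TFR1 or MTF1 from liver to liver. Each liver had its own array, so that differences between fish and between arrays cannot be told apart here. Deviations from the group means were correlated in 16 pairs of TFR1 or MTF1 with list clones or with each other, with p from permutations within groups and adjustment over the 16. TFR1 and MTF1 themselves gave Pearson r = -0.27 and Spearman rho = -0.24 over 32 livers (permutation, adjusted p = 0.177 and 0.345), and without the 2 livers farthest from the TFR1 median r was -0.20. The r within groups was -0.51 in F-HE, -0.49 in F-LE, -0.33 in L-HE and 0.40 in L-LE livers.

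By Pearson r, 6 of the 16 pairs passed an adjusted p of 0.05, and by Spearman rho 0 did, with 5 at an unadjusted permutation p under 0.05. Among all 7739 clones compared, 7.64% had a rho with TFR1 above 0.5 in size, and UCRI ranked 980 from the top. How many of all clones would pass these tests was not computed, so the count is not particular to the lists. TFR1 went with NIFUN (r = 0.57, permutation, adjusted p = 0.0277, rho = 0.47, adjusted p = 0.0627) and UCRI (r = 0.48, adjusted p = 0.0292, rho = 0.39, adjusted p = 0.128), and against RHAG (r = -0.51, adjusted p = 0.0292, rho = -0.30, adjusted p = 0.226). Also past the threshold by r were TFR1 with B3AT (r = 0.37) and with ERMAP (r = 0.38) and MTF1 with IREB1 (r = -0.38 over 27 livers), each with an adjusted permutation p of 0.0461. Without the 2 livers farthest in TFR1, on membranes 62 and 54, r was 0.45 for NIFUN, 0.45 for UCRI and -0.37 for RHAG. None of these 6 pairs passed without membrane 59, where r was 0.52 for NIFUN (permutation, adjusted p = 0.0586), 0.39 for UCRI (0.134) and -0.43 for RHAG (0.134).

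Without all 6 arrays of low correlation, r of TFR1 over 26 livers was 0.17 with NIFUN, 0.07 with UCRI and 0.22 with RHAG. Without membrane 59 rho was 0.48 with NIFUN, 0.29 with UCRI and -0.17 with RHAG. Without the 6 arrays, a setting chosen after seeing the data, rho was 0.24, -0.00034 and 0.29. The values for TFR1 with these transcripts thus changed with the arrays kept, and the cause was not tested. TFR1 with IREB1, whose protein binds TFR1 mRNA in mammals, had r = 0.40 and rho = 0.25 over 27 livers (permutation, adjusted p = 0.126 and 0.345), and r = 0.03 without membrane 59.

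MTF1 and UCRI behaved in the opposite manner. Over 32 livers r was 0.35 and rho 0.49 (permutation, adjusted p = 0.0997 and 0.0627). Without membrane 59 r was 0.58 and rho 0.63 (permutation, adjusted p = 0.0254 and 0.00752), and without the 2 livers farthest in MTF1 as well, on membranes 23 and 45, r was 0.60. Without all 6 arrays, a setting chosen after seeing the data, r was 0.80 and rho 0.82 over 26 livers (permutation, adjusted p = 0.00064 and 0.00016). Within groups r was then 0.86 in F-HE, 0.82 in F-LE, 0.75 in L-HE and 0.90 in L-LE livers. This was the 1 pair of 16 that passed in that setting, by r and by rho.

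Both clones of that pair carry the clone name prefix tcay, and the sources used here do not say what the prefix stands for. Among the 7739 clones with at least 24 livers shared with MTF1, 16.3% carry this prefix, while 13 of the 20 clones most like MTF1 in rho and 42 of the top 100 do. Without the 6 arrays it was 15 of the top 20, with UCRI at rank 10 of all clones, against rank 68 with all arrays. For TFR1, whose prefix tcba is carried by 9.96% of clones, it was 0 of the top 20 and 7 of the top 100 with all arrays, and 6 of the top 20 and 18 of the top 100 without the 6 arrays. These counts were looked at after the values were seen, and the part of the shared prefix in the MTF1 relations was not tested.

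**Figure D5:**
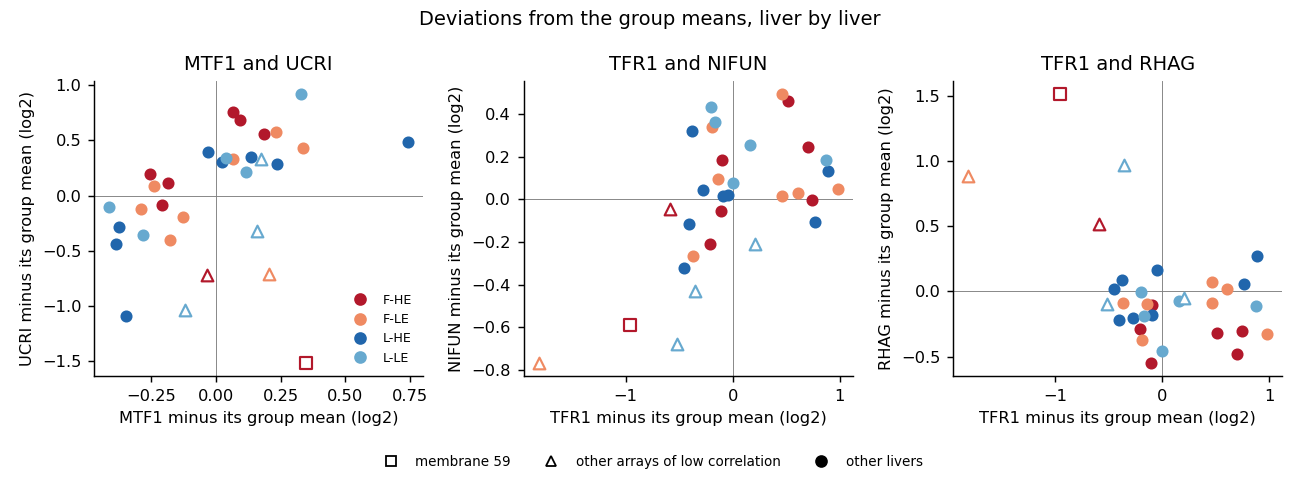
Deviations from the group mean on the log2 scale in single livers, for MTF1 and UCRI (left), TFR1 and NIFUN (middle) and TFR1 and RHAG (right), coloured by group. The square is membrane 59 and triangles are the 5 other arrays of low correlation. In the left panel filled points rise together (r = 0.80 over 26 livers), and in the other panels the lowest TFR1 deviations are a triangle and the square.

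Among the 283 named clones with enough shared livers, those most like TFR1 in Spearman rho were TRI39 (a tripartite motif protein) at 0.61, ITIH2 (a plasma protease inhibitor chain made by liver) at 0.57, COMD6 (a COMM domain protein) at 0.56, SERA (phosphoglycerate dehydrogenase, which begins serine synthesis) at 0.55 and CTDS1 (a small phosphatase) at 0.54. The 5 most opposed were AL2S4 at -0.50, PRVA (parvalbumin, a calcium buffer of muscle) at -0.50, RHBD2 (a rhomboid protein) at -0.49, SYMPK (symplekin, of mRNA 3′ processing) at -0.48 and FMO6 (a putative flavin monooxygenase) at -0.47. Without membrane 59 only 1 of the 5 most alike and 4 of the 5 most opposed stayed in these lists. None of them was among the 20 clones most like TFR1 or most opposed to it of all 7739, since TRI39 ranked 26 from the top, and those 20 had no name in the lists used here.

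MTF1 had closer named neighbours. NUDC3 (a NudC domain protein) had rho = 0.77, which was the highest of all 7739 clones, followed by CARD4 (the intracellular bacterial sensor NOD1) at 0.72, ABCG2 (an efflux transporter) at 0.62, PPR3D (a glycogen-targeting phosphatase subunit) at 0.62 and FBXW2 (an F-box protein) at 0.61. Of these, CARD4, ABCG2, PPR3D and FBXW2 carry the prefix tcay of MTF1 itself, which 16.3% of clones carry, and NUDC3 does not. The part of the shared prefix in their likeness was not tested. Most opposed were SFRS1 (a splicing factor) and APA11 (apolipoprotein A-I), at -0.52 each, then ERG25 (a methylsterol oxidase) at -0.40, B3AT at -0.39 and AP2M1 (a clathrin adaptor subunit) at -0.38. Without membrane 59 the rho of NUDC3 was 0.76 and that of CARD4 0.73, and 3 of the 5 most alike and 3 of the 5 most opposed stayed. Within each liver all clones were read from 1 array, so these correlations also hold what varied between arrays, and they are given as a description over 32 livers. All named clones had been picked by the study on these samples.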

How the data were processed

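Liver RNA of 32 trout was hybridized as radiolabelled cDNA to nylon arrays. The deposited values are log10 signals. To make them, the authors read the spots with AGScan, left out spots with too little vector oligonucleotide signal, corrected the rest for their DNA, and scaled each array by its median in BASE. Excluded spots, written as a bare 0, were treated as missing (41354 cells). Values were converted to log2. A filter of 5 measured livers per group left 7763 clones, to which limma 3.58.1 (R 4.3.3) was fitted with 1 mean per group, and a call was an adjusted p (Benjamini-Hochberg) below 0.15. The fit was tested on simulated data. Exact and permutation tests (100000 draws) were run in Python 3.11.15 with scipy 1.17.1. All 8 livers per group were used, as the sources used here do not say which 6 the methods refer to. Nothing in the labels says how the 8 livers of a group relate beyond the number that was read as their tank. The number of arrays limits the precision.

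Clone names come from the study's additional files, which name only clones it had called. Named genes were the 2 clones, the 3 lists, and the 5 named clones most and least like each in Spearman rho over at least 24 livers. The members and lists were chosen with earlier results of these data known. Alternatives were quantile normalization, re-centring, other filters on missing or dim clones, a robust variance trend, two-way ANOVA without moderation, tank as a random or fixed block, tank means, membrane number as covariate, array weights, and leaving out each array or the 6 arrays of low correlation. Leaving out membrane 59 from the exact tests, the lists and the counts over all clones, and the 6 arrays from the correlations, was chosen after seeing the data.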

Additional observations from a re-analysis of the deposited data

Results flagged for a closer look

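In 13 clones, the 2 members and the 11 of the lists, each group of livers was searched for a highest or lowest liver set far from the rest of its group by Dixon's criterion. Of 52 groups, 10 held such a liver, where chance flags about 1 in 20 groups. No group of TFR1 or MTF1 did, and 9 of the 10 livers were on the 6 arrays of low correlation, 4 of them on membrane 59. The control spots of membrane 59 were also far below those of every other array.

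On membrane 59, in F-HE livers, IREB1 was low at 1.94 with the next liver at 3.90, ERMAP was low at -0.00332 with the next at 1.08, MSRA was high at 4.46 with the next at 1.15, and 8ODP was high at 1.62 with the next at 0.24. RHAG was high on membrane 68 in L-LE livers, at -0.63 with the next at -1.60, and on membrane 62 in F-LE livers, at -1.12 with the next at -1.93. GSHB was high on membrane 65 in F-HE livers (-0.68, next -1.34), on membrane 62 in F-LE livers (-0.43, next -1.30) and on membrane 56 in L-LE livers (-0.77, next -1.19). MSRA was high on membrane 19 in L-LE livers, at 1.63 with the next at 0.90, and the median Spearman correlation of that array with the others was 0.908, the lowest of the 26 arrays outside the 6.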

How the results depend on the processing

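No diet or interaction call of TFR1 or MTF1 was gained under any alternative run, and the F minus L differences kept their sign in all of them, at -0.88 to -0.60 for TFR1 over both diets and 0.27 to 0.35 for MTF1. The clones were chosen by these line differences, so that the kept sign is not independent evidence. The signs of the diet differences of TFR1 are not settled. With single livers left out the difference in the F line ran from -0.28 to 0.12, that in the L line from -0.24 to 0.00789 and the interaction from -0.17 to 0.23. With array weights the F line value was 0.0494. The MTF1 interaction was -0.0713 after quantile normalization. With tank number as a replicate block the diet difference over both lines was -0.09 for TFR1 and -0.19 for MTF1, and no call changed. MTF1 gave no value without the dimmest clones, among which it lay.

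The correlations depended on the arrays kept. Pairs past the threshold by r numbered 1 without membrane 59 and 1 without the 6 arrays, against 6, and by rho 2 after re-centring and 1 in both of those settings, against 0. Without the 6 arrays r was 0.0528 for TFR1 with ISAM2 and 0.22 for TFR1 with RHAG, both below 0 with all arrays. MTF1 with NIFUN was 0.0443 without membrane 59 and 0.26 without the 6. Without membrane 59, 41 clones were called for diet against 19, 2 against 0 in the L line and 0 against 4 in the F line. The cause was not tested. MTF1 was dim, and no background signal was left in the table to set against it.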
